A study of Rattus norvegicus with 10 samples.

Results

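The sham experiment asked what pressure on the skin and periosteum of the leg did to gene expression in cortical bone when the bone was not bent. The arrays of the SHAM group came from 5 female Wistar rats aged 12 weeks, a part of the rats that were squeezed. The right tibia of each rat was squeezed between pads placed opposite each other, for 300 cycles at 2 Hz with a peak setting of 60 N, and the left tibia was left alone. RNA was taken from both shafts 6 hours later, after the ends, the periosteum and the marrow had been removed. The 5 arrays of this group, chosen by their titles, were 5 of the 10 arrays of the series. The other 5 were of LOAD rats of the same strain, sex and age, whose right tibia was bent under the same setting. The comparison has no rat without any procedure, so that the left tibia of a squeezed rat is the only baseline, and a change shared by both legs would not be seen.

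Cortical bone consists mainly of mineralized matrix with osteocytes embedded in it. These cells are thought to sense deformation of the bone and to signal to osteoblasts, which form matrix, and to osteoclasts, which resorb it. Squeezing without bending puts pressure on the overlying soft tissue and on the bone surface but should strain the shaft little, and it therefore serves as the control for four-point bending. Known early answers of bone cells to a load include transcription factors of the Egr family, release of prostaglandins and nitric oxide, and a rise in cAMP.

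By design, each array carried the right and the left tibia of a single rat in different dyes. The value of a gene was the log2 ratio of right over left after loess normalization within the array. A log2 ratio of 1 is a 2-fold higher level in the squeezed tibia. The right tibia was labelled with Cy3 on SHAM 1, SHAM 3 and SHAM 5 and with Cy5 on SHAM 2 and SHAM 4. Of 4803 accessions on the array 4707 were kept, and 1184 of the 4803 could be named. On the SHAM arrays 32 to 68 spots fell under the confidence minimum of 0.11, and 68.9% to 76.6% of spots carried signal in both channels. For SHAM 1 a label field says LOAD, whereas its title, its description and its file header say SHAM. The file headers number the tibiae, and 8 of the 10 arrays pair a right tibia with the next higher number, as in 33 and 34 on SHAM 1. SHAM 4 pairs tibia 25 with tibia 4, and LOAD 4 pairs tibia 3 with tibia 26. Whether SHAM 4 holds the 2 tibiae of a single rat was therefore uncertain. All results include it unless stated, and some of those that rest on it are also given without it.

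The tissue carried the RNA of bone cells. All 6 osteocyte genes measured and all 10 osteoblast and matrix genes had signal in all 10 SHAM channels. Signal in all 10 channels was also found for 14 of 17 leukocyte and marrow genes and 14 of 26 muscle genes, beside 3118 of all 4707 genes kept. These counts do not show how much RNA of other cells was present. No gene of the keratinocyte and skin list was found among the named accessions. In such bulk RNA a smaller number of cells of a type and less RNA per cell cannot be told apart.

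No gene was called different between the squeezed and the contralateral tibia. At a false discovery rate of 20% in limma, 0 of 4707 genes (0%) were called, and the lowest adjusted p was 0.999992. An unadjusted p under 0.05 was found for 32 genes (0.68%), where evenly spread p-values would give 235. The squeezed tibia had the higher level for 25 of them and the lower level for 7. Without SHAM 4 there were 22 such genes, without SHAM 5 there were 73, and in both cases 0 past the false discovery rate. With SHAM 1 counted as LOAD there were 45 and 0. Only 67 genes had 5 ratios above 0 and 76 had 5 ratios below 0, which together were 3.10% of the 4616 genes with a value in every rat.

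The intervals show which sizes of change remain possible. The 95% interval extended to either side of the mean ratio by a median of 0.23 on the log2 scale, and by 0.15 at the 5th and 0.48 at the 95th percentile of genes. It lay within 1 of 0, a 2-fold difference in either direction, for 4660 genes (99.0%) and within 0.5 for 4214 genes (89.5%). The mean ratio was beyond 0.5 in 11 genes and beyond 1 in 0 genes. These intervals come from a fit in which SHAM and LOAD share an estimate of the spread, with 5 rats each. Fitted alone, the SHAM arrays gave 62 genes at an unadjusted p under 0.05 (1.32%). With a term for the dye they gave 284 (6.03%), 134 higher and 150 lower, and 28 of these were among the 32. In that fit, too, 0 genes (0%) passed the false discovery rate, with a lowest adjusted p of 0.785.

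The named genes of lowest p with a higher level in the squeezed tibia were, in this order, Gcg, Drd5, Psg19 and Pde4b, and none of the 4 passed the test. Gcg, which encodes the glucagon precursor, had log2 ratios of 0.24, 0.19, 0.22, 0.37 and 0.11 in SHAM 1 to 5. Its mean was 0.23 (SE 0.07, adjusted p = 0.999992 in limma), but the probe had signal in 0 of 10 channels, so that a ratio this even was read near background. Pde4b, a phosphodiesterase that degrades cAMP, had signal in all 10 channels and ratios of 0.15, 0.13, 0.36, 0.33 and 0.03. Its mean was 0.20 (SE 0.08, adjusted p = 0.999992 in limma). All 5 rats lay above 0 for both genes. Drd5, a dopamine receptor, had a mean of 0.23 (SE 0.08) with 4 of 5 rats above 0, and signal in 2 of 10 channels. Psg19, a pregnancy-specific glycoprotein gene, had ratios of 0.20, 0.18, 0.71, 0.09 and 0.19, all above 0 and highest in SHAM 3. Its mean was 0.27 (SE 0.11), with signal in 2 of 10 channels. Pde4a, a phosphodiesterase of the same family, had ratios of 0.09, -0.998, -0.26, -0.23 and 0.13 with a mean of -0.25 (SE 0.14), so that SHAM 2 lay far below the others.

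In several of the other named genes of low p on this side, 1 or 2 rats stood apart. Clcn5, a chloride transporter of endosomes, had ratios of 0.01, 0.26, 0.52, 0.36 and 0.00, with signal in 0 of 10 channels. For Ntrk2, the receptor of the neurotrophin BDNF, the mean of 0.31 rested mainly on SHAM 3, with a ratio of 0.96 there and signal in 2 of 10 channels. For Adam1a, a metalloprotease gene, it rested on SHAM 1, with 0.93 against -0.03 to 0.30 in the other rats. Dlg1, a scaffold protein of cell junctions, had ratios of 0.25, 0.35, 0.31, 0.34 and -0.03, with signal in all 10 channels. Cd2, a T cell adhesion molecule, ranged from -0.14 in SHAM 1 to 0.72 in SHAM 4, and its mean of 0.24 was 0.12 without SHAM 4. Gdf15, a stress-induced cytokine of the TGF-beta superfamily, had a mean of 0.31 (SE 0.16) and ratios of 0.80, 0.46, -0.09, 0.44 and -0.05. Mstn, which encodes the muscle growth inhibitor myostatin, lay at or above 0.00 in 5 of 5 rats with a mean of 0.17 (SE 0.08), but had signal in 0 of 10 channels. Hapln1, a link protein of cartilage matrix, had a mean of 0.21 (SE 0.11).

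Among the genes nearest to a lower level, Ifit1 had the lowest p of all named genes. Ifit1, an interferon-induced antiviral gene, had ratios of -0.29, -0.18, -0.41 and -0.27 in SHAM 1, 2, 3 and 5 and no value in SHAM 4. Its mean over 4 rats was -0.29 (SE 0.08, adjusted p = 0.999992 in limma), with signal in 4 of 10 channels. All 4 rats with a value lay below 0. The other interferon genes lay closer to 0. Psmb9, an immunoproteasome subunit that interferon induces, had ratios of -0.06, 0.01, -0.00, -0.03 and 0.02, and B2m, the light chain of MHC class I, had a mean of -0.01 (SE 0.07). Of the 5 interferon genes measured, 2 had a mean above and 3 below 0, with a median of -0.01.

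Prl4a1, a prolactin family gene, had a mean of -0.25 (SE 0.12) with 5 of 5 rats below 0 and signal in 0 of 10 channels. Apoa4, an apolipoprotein, had a mean of -0.30 that rested on -1.11 in SHAM 4 (-0.10 without it), and the other 4 rats ranged from -0.41 to 0.08. Adh1c, an alcohol dehydrogenase, had -0.55 in SHAM 2 and -0.17 to 0.02 elsewhere. Ppia, the cyclophilin often used as a reference gene, had ratios of -0.41, 0.09, -0.21, -0.12 and -0.15 with a mean of -0.16 (SE 0.10).

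**Figure D1:**
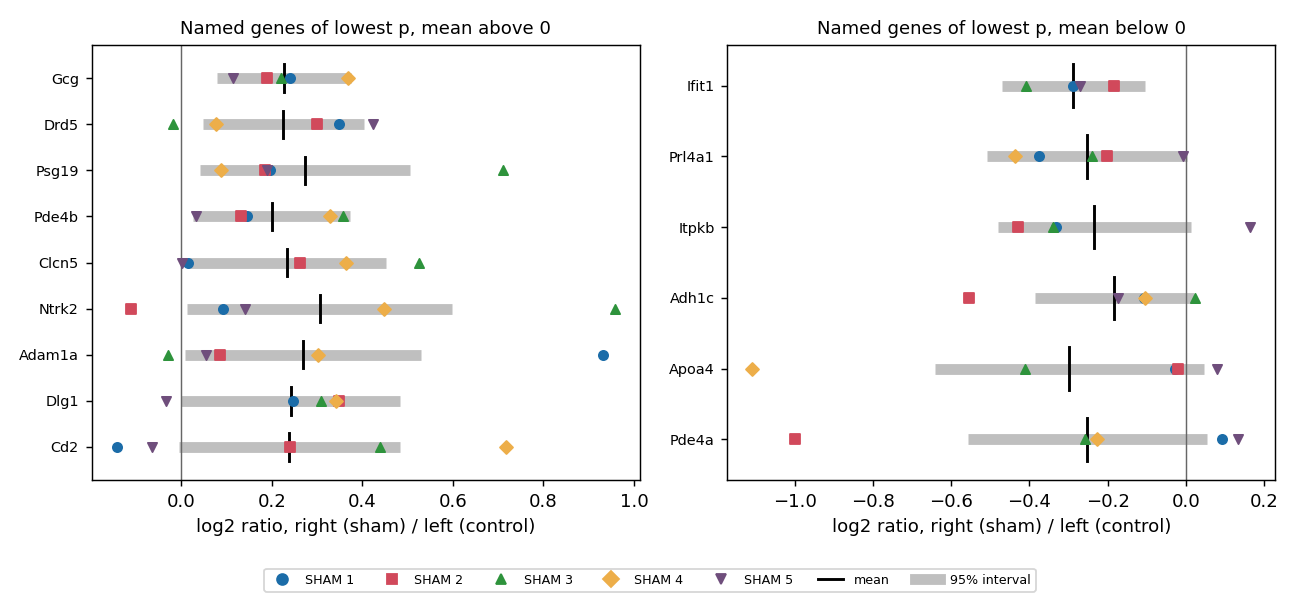
Log2 ratio of the squeezed right over the left tibia (horizontal axis) for the named genes of lowest p with a mean above 0 (left) and below 0 (right). Symbols are the 5 rats, the black line is the mean and the grey bar its 95% interval. Gcg, Pde4b and Ifit1 lie on 1 side of 0 in every rat with a value, whereas Ntrk2 and Apoa4 have a single rat far from the others. No gene passed the false discovery rate.

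No gene of bone cells passed the test. In the osteocyte list, 4 of 6 genes had a mean above 0 and 2 below, with a median mean of 0.02, beside 0.00 over all genes. Mepe, a matrix glycoprotein of osteocytes that regulates mineralization, had ratios of 0.81, 0.11, 0.62, -0.83 and -0.06. Its mean was 0.13 (SE 0.22), with a 95% interval from -0.36 to 0.62, and 0.37 without SHAM 4. The rats thus lay on both sides of 0, with SHAM 1 and SHAM 3 high and SHAM 4 low. Phex, the endopeptidase that binds Mepe, had ratios of 0.30, -0.03, 0.35, -0.26 and -0.33, again highest in SHAM 1 and SHAM 3. Cd44, a hyaluronan receptor rich on osteocytes, had 0.45, -0.30, 0.46, -0.56 and 0.18, and the Cy3 arrays did not overlap with the Cy5 arrays. Gja1, the gap junction protein connexin 43, had a mean of 0.02 (SE 0.11), and Npy, neuropeptide Y, had -0.11 (SE 0.11) with -0.58 in SHAM 4, and a mean of 0.00 without it. Over the 6 osteocyte genes the median ratio of a rat was 0.22, -0.10, 0.40, -0.46 and 0.02.

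Of the 10 osteoblast and matrix genes, 7 had a mean above and 3 below 0, with a median of 0.10 (0.19 without SHAM 4), and 0 passed the test. Sparc, the collagen-binding protein osteonectin, was the member with ratios above 0 in 5 of 5 rats, at 0.48, 0.04, 0.37, 0.01 and 0.15. Its mean was 0.21 with an SE of 0.33, which includes the wider spread of this gene in LOAD. Spp1, the matrix protein osteopontin, had ratios of 0.38, 0.61, 0.18, -0.05 and -0.41. Ibsp, bone sialoprotein, had 0.48, 0.45, 0.02, 0.03 and -0.20. Both were highest in SHAM 1 and SHAM 2 and lowest in SHAM 5. Pth1r, the receptor of parathyroid hormone, had a mean of 0.14 (SE 0.14) with -0.31 in SHAM 4, and 0.25 without it. Tnfrsf11b, which encodes osteoprotegerin, the inhibitor of osteoclast formation, had 0.12 (SE 0.12). Msx2, a homeobox factor of the osteoblast lineage, had -0.06 (SE 0.07).

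Of 3 osteoclast genes, 0 passed. Acp5, the tartrate-resistant acid phosphatase, ranged from -0.35 in SHAM 5 to 0.86 in SHAM 4, and its mean of 0.21 was 0.05 without SHAM 4. Car2, the carbonic anhydrase that supplies protons for resorption, had a mean of -0.17 (SE 0.29). Slc4a2, an anion exchanger, had 0.08 (SE 0.07). Pressure on the periosteum was part of the procedure, but the periosteum was removed before extraction. Of 5 genes of periosteum and fibroblasts, 3 had a mean above and 2 below 0, with a median of 0.10. Fbln5, an elastic fibre protein, had 0.53, 0.14, 0.21, 0.19 and -0.16. S100a4, a fibroblast calcium-binding protein, had -0.15, 0.56, 0.36, 0.02 and -0.26. Thy1, a surface marker of fibroblasts and T cells, reached 1.22 in SHAM 5 and lay between -0.48 and 0.32 elsewhere.

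Early response genes were likewise spread around 0 at 6 hours. An earlier response that had passed by then would not be seen. Of 17 genes measured in the list of early response and mechanosensing, 9 had a mean above and 8 below 0, the median was 0.00, 0 passed, and the 95% intervals of all 17 lay within 1 of 0. Egr1, an immediate early transcription factor, had ratios of 0.07, 0.14, 0.27, 0.17 and -0.06, with a mean of 0.12 (SE 0.09). Egr3, of the same family, had -0.14, 0.25, -0.54, 0.21 and -0.20. The means of the other members with signal in all 10 channels were small as well. Atf3, a stress-induced transcription factor, had -0.05 (SE 0.09), Myc 0.04 (SE 0.08), the antiproliferative gene Btg2 0.00 (SE 0.19) and the neuronal early gene Arc 0.10 (SE 0.18). Nos2, the inducible nitric oxide synthase, had 0.03 (SE 0.14). Slc1a3, the glutamate transporter GLAST, had 0.07 (SE 0.07), and the integrin chain Itgb1 had -0.03 (SE 0.11).

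Several members of this list could hardly be measured. Ptgs2, the inducible cyclooxygenase, had signal in 1 of 10 channels and a mean of -0.02 (SE 0.12). Fosl1, Nr4a2 and P2rx7 had signal in 0 of 10 channels, and Egr4 in 4. P2ry2, a nucleotide receptor, had signal in all 10 channels and stood out in a single rat, with 1.18 in SHAM 3 against -0.23 to 0.15 in the others.

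In the cAMP and prostaglandin list, 8 of 16 genes had a mean above and 8 below 0, with a median of -0.00. Ptger3, a prostaglandin E2 receptor, had by far the widest interval, from -2.28 to 0.50, and ratios of -1.07, -3.30, -0.68, -1.54 and 2.14. Tbxas1, thromboxane synthase, had a mean of 0.12 (SE 0.10) with 0.53 in SHAM 3.

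**Figure D2:**
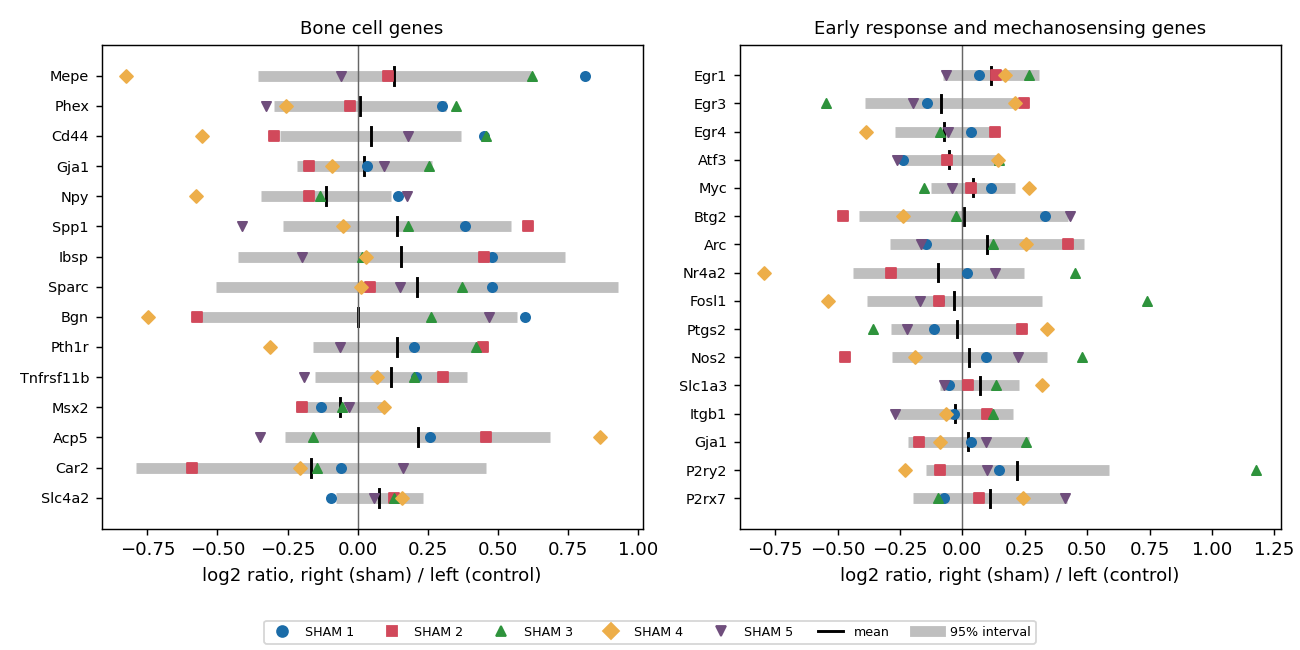
Log2 ratio of the squeezed right over the left tibia (horizontal axis) for genes of osteocytes, osteoblasts and osteoclasts (left) and of the early response and mechanosensing list (right). Symbols are the 5 rats, the black line is the mean and the grey bar its 95% interval, which crosses 0 for every gene shown. Mepe spreads from -0.83 in SHAM 4 to 0.81 in SHAM 1, while Egr1 stays between -0.06 and 0.27.

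Markers of tissue injury were spread around 0 as well. Of 20 genes of inflammation and injury, 9 had a mean above and 11 below 0, with a median of -0.00, 0 passed, and the intervals of all 20 lay within 1 of 0. Of these genes 6 had no signal in any channel. Il1a, which encodes the alarm cytokine interleukin 1 alpha, had ratios of -0.31, 0.12, -0.40, -0.16 and -0.13. Icam1, an adhesion molecule for leukocytes, had 0.97 in SHAM 3 and -0.05 to 0.13 in the other rats, with signal in 2 of 10 channels. Tnfrsf1a, a receptor of tumor necrosis factor, had a mean of 0.07 (SE 0.08). Of 9 genes of heat shock and cell stress, 4 had a mean above and 5 below 0, with means from -0.08 to 0.09. The catalase gene Cat had 0.06 (SE 0.08), and Sod1, a superoxide dismutase, had -0.04 (SE 0.10).

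Leukocyte and marrow genes had a median of 0.02 over 17 genes. The mast cell proteases Cma1, Tpsb2 and Tpsab1 were each highest in SHAM 4, at 0.66, 0.63 and 0.49, and next in SHAM 2, the other Cy5 array. Without SHAM 4 their means were 0.09, 0.04 and 0.09. The 7 endothelial genes had a median of -0.02, among them Kdr, a receptor of VEGF, at 0.07 (SE 0.09), and Edn1, endothelin 1, at -0.07 (SE 0.10). Cald1, the smooth muscle protein caldesmon, lay between -0.19 and -0.01 in all 5 rats, with a mean of -0.08 (SE 0.07). The 13 nerve genes had a median of -0.02, with 4 means above and 9 below 0. In each of these lists 0 genes passed.

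Growth factor pathways that are known in bone were centred on 0 too. The 8 genes of the insulin-like growth factor axis had a median of 0.03, with 6 means above 0. The 13 genes of TGF-beta and BMP signalling had a median of 0.02, with 9 above and 4 below. Smad3 and Smad4, which carry the TGF-beta signal to the nucleus, had means of 0.11 (SE 0.07) and 0.13 (SE 0.09). Grem1, a BMP antagonist, had ratios of -0.01, -0.36, 0.16, -0.88 and -0.02. Only 2 Wnt genes were measured, both with a mean of 0.03.

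The spread between the tibiae of a rat differed widely among genes. The SD of the log2 ratio over the 5 rats had a median of 0.190, from 0.07 at the 5th to 0.53 at the 95th percentile, and it was over 0.5 in 275 and over 1 in 34 genes. With the genes split into 3 equal groups by intensity, the median SD was 0.217 in the dim, 0.189 in the middle and 0.161 in the bright group. Ttpa, a vitamin E transfer protein of the liver, had the largest SD of all genes with 5 ratios, 2.05, and ratios of -0.32, -2.18, -0.05, -0.79 and 3.36. Ptger3 came next with 1.97, and Slc4a1, the anion exchanger of red cells, followed with 1.91. At the other end, Psmb9 had an SD of 0.03, Cat and Cald1 0.07, and B2m 0.09. The 9 ribosomal protein genes had SDs from 0.05 to 0.22.

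Much of this spread followed the dye of the squeezed tibia. The Cy3 and the Cy5 arrays did not overlap in 2200 of 4616 genes (47.7%), and the dye took up a median of 44.1% of the variance of a gene over the 5 rats. Any split into 3 and 2 arrays separates some genes and takes up some variance by chance, which is included in both values. Among the 231 genes of largest SD, this median was 73.5%, and 166 genes had lower ratios on both Cy5 arrays than on all Cy3 arrays, against 13 with higher ones. With a dye term in limma, 1355 genes (28.8%) were called for the dye in the 5 SHAM arrays at the rate of 20%. The ratio was higher in Cy5 for 606 of them and lower for 749. Over all 10 arrays 86 genes (1.83%) were called, 26 higher and 60 lower in Cy5. The count in SHAM depended on single arrays, with 746 without SHAM 1, 509 without SHAM 2, 849 without SHAM 4 and 461 without SHAM 5, and 1454 without SHAM 3. The count over 10 arrays was 7 to 17 without any one SHAM array, 577 when the dyes of LOAD 2 were exchanged and 1 in the LOAD arrays alone. The 2 Cy5 arrays, SHAM 2 and SHAM 4, were correlated across genes (r = 0.48), as were SHAM 1 and SHAM 5 in Cy3 (r = 0.36), whereas SHAM 2 and SHAM 5 were opposed (r = -0.65). Genes are not independent replicates, and these correlations are a description. With 3 and 2 arrays, the dye cannot be told apart from any other difference between these 2 sets of rats.

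Abundant genes of metabolism and matrix were among those that followed the dye. Aldoa, the glycolytic enzyme aldolase A, had ratios of 0.32, 0.28 and 0.56 in Cy3 and of -0.91 and -1.03 in Cy5, and the dye took up 97.7% of its variance (adjusted p = 0.0246 in limma for the 5 SHAM arrays). Eno1, the glycolytic enzyme enolase, had 0.43, 0.43 and 0.64 against -0.58 and -0.995. Bgn, the matrix proteoglycan biglycan, had 0.60, 0.26 and 0.47 against -0.57 and -0.75, and its mean was 0.00 (SE 0.26). Each of these genes was higher in the squeezed tibia of the rats in Cy3 and lower in that of the rats in Cy5. Timp3, an inhibitor of metalloproteinases, had 0.45, 0.16 and 0.78 against -1.01 and -0.98. Psap, a lysosomal activator protein, had 0.66, 0.03 and 0.94 against -1.56 and -1.22. Over 10 arrays the adjusted p for the dye was 0.30 for Aldoa, 0.186 for Eno1, 0.231 for Bgn, 0.366 for Timp3 and 0.302 for Psap, so that of these 5 genes only Eno1 passed 20% there.

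In some genes SHAM 5 went further than the other Cy3 arrays. Slc4a1 had ratios of 0.90, 0.07 and 2.43 in Cy3 and of -2.30 and -1.61 in Cy5. Eef2, the elongation factor of translation, had 0.77, 0.37 and 2.50 against -1.51 and -0.995. Ccnd3, cyclin D3 of the cell cycle, had 0.61, 0.23 and 1.82 against -1.11 and -0.95. Slc22a6, an organic anion transporter, had 0.09, 0.04 and 1.41 against -1.86 and -1.12. Slc4a1 is a marker of red cells, but the other erythroid genes had a smaller range. Alas2, the first enzyme of heme synthesis in red cells, had -0.17, -0.63, 0.04, 0.05 and 0.20 in SHAM 1 to 5, and Epor, the erythropoietin receptor, had 0.05, -0.46, 0.47, -0.26 and 0.92.

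In the TGF-beta and BMP list the dyes did not overlap in 12 of 13 genes, beside 47.7% of all genes. Tgfbr3, the betaglycan receptor, had ratios of 0.30, 0.04 and 0.18 in Cy3 and of -1.07 and -0.83 in Cy5. With a term for the dye, its mean was -0.39 in the 5 SHAM arrays (adjusted p = 0.785 in limma), against -0.27 (SE 0.19) without one. Cd3d, a chain of the T cell receptor complex, went the other way, at -0.22, -0.53 and -0.31 in Cy3 and 0.46 and 0.91 in Cy5, with signal in 0 of 10 channels. In contrast, the dye took up a median of 9.03% of the variance in the osteoblast list and 6.18% in the adipose list.

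**Figure D3:**
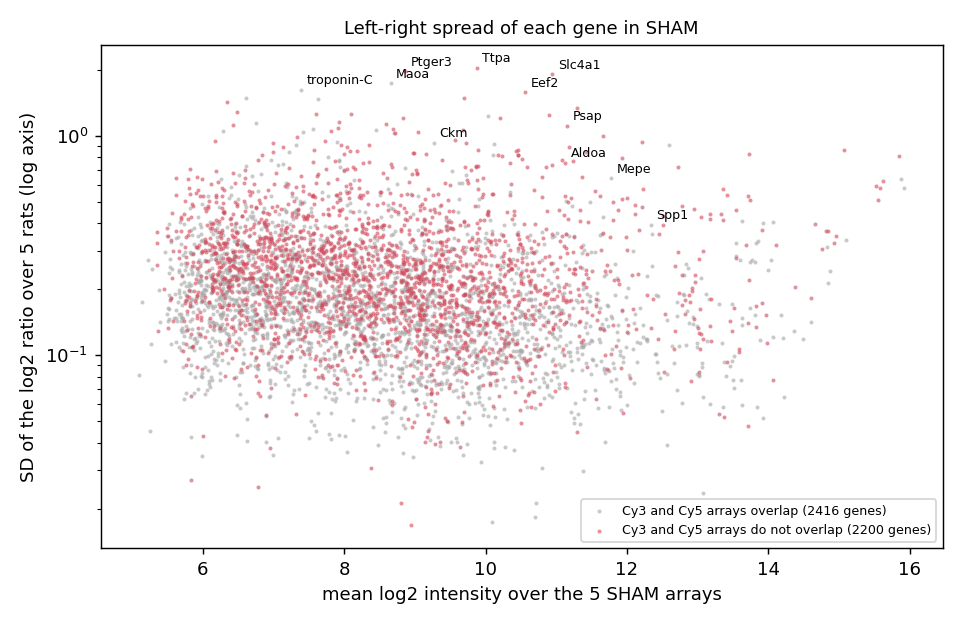
SD of the log2 ratio over the 5 SHAM rats (vertical axis, log scale) against the mean log2 intensity on the SHAM arrays (horizontal axis), with a point per gene. Red points are the 2200 genes whose Cy3 and Cy5 arrays did not overlap and grey points the other 2416. Ttpa, Ptger3, Slc4a1, Maoa and troponin-C lie near the top.

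Some skeletal muscle genes showed a second pattern, and the examples were chosen after their values were seen. The ratio of the squeezed over the left tibia for these genes was lowest in SHAM 1, highest in SHAM 2 and between these in the other 3 rats. By the image names, SHAM 1 and SHAM 2 shared a scan batch, and SHAM 3, SHAM 4 and SHAM 5 each had a different one. A difference between batches cannot be told apart from a difference between these rats. Over the whole list of 26 muscle genes, the Cy3 and Cy5 arrays did not overlap in 13, close to the share of all genes. Troponin-C, the calcium sensor of the thin filament, had ratios of -1.94, 2.63, 0.22, 0.09 and -0.04. Myl11, a myosin light chain of fast fibres, had -1.60, 2.45, 0.36, 0.02 and -0.27. Ckm, the muscle creatine kinase, had -0.95, 1.57, 0.36, -0.23 and 0.37. The Cy3 and Cy5 arrays overlapped for these 3 genes. The means were 0.19 (SE 0.61), 0.19 (SE 0.59) and 0.22 (SE 0.39), and the SDs over the 5 rats were 1.62, 1.47 and 0.93. In LOAD, whose spread enters these errors too, the SDs were 1.66, 1.71 and 1.15. Pgam2, the muscle phosphoglycerate mutase, had -0.84, 1.06, 0.08, 0.19 and -0.04, and Capn3, a muscle protease, had -0.41, 0.88, -0.24, 0.19 and -0.12. In both of these the Cy5 arrays also lay above all Cy3 arrays. Signal was found in 4 of 10 channels for troponin-C, in 8 for Myl11 and in 2 for Pgam2, so that the lower tibiae were read near background.

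Probes named for genes that are not specific to muscle had the same rats at both ends. Maoa, which breaks down monoamines, had ratios of -1.93, 2.84, 0.66, -0.17 and -0.24. Fgb, the fibrinogen beta chain, had -0.89, 1.60, 0.18, -0.05 and -0.23. Klc-C, a kinesin light chain, had -0.78, 1.73, 0.09, -0.17 and -0.03. The authors state that a part of the probes reacts with other transcripts, and the files do not say which. By real-time RT-PCR in more rats, they could not detect Fgb in any tibia. They also found no significant left-right difference for Maoa or the kinesin light chain in SHAM or LOAD. Whether these probes read the genes they are named for was not tested here. Other muscle genes did not share this order, such as Mstn, which was highest in SHAM 1. Of the 26 muscle genes, 9 were higher in the squeezed tibia in SHAM 1, 20 in SHAM 2, 14 in SHAM 3, 16 in SHAM 4 and 9 in SHAM 5, and the median ratio of a rat was -0.13, 0.19, 0.04, 0.07 and -0.07. The 10 respiratory chain genes had medians of -0.19, 0.19, 0.01, 0.01 and -0.09 in the same rats. The part of muscle RNA in these values was not tested.

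Levels of the single channels show which tibia was the unusual one. The log2 level of Myl11 was 8.95 in the left and 7.34 in the right tibia of SHAM 1, and 7.60 in the left and 10.05 in the right tibia of SHAM 2. In the 6 tibiae of SHAM 3 to 5 it ranged from 6.58 to 7.08. The higher level of each pair was thus in the left tibia of SHAM 1, which had not been squeezed, and in the squeezed tibia of SHAM 2. The other tibiae of these rats, at 7.34 in SHAM 1 and 7.60 in SHAM 2, also lay above the range of SHAM 3 to 5. Troponin-C had the same pattern, with 8.68 and 6.73 in the left and right tibia of SHAM 1, 7.52 and 10.15 in SHAM 2, and 6.42 to 6.73 in SHAM 3 to 5. In LOAD, Myl11 ranged from 6.77 to 7.43 in the right tibiae, from 9.11 to 11.13 in the left tibiae of LOAD 3 to 5, and from 6.69 to 6.86 in the left tibiae of LOAD 1 and 2. Summed over the muscle list, the log2 level was 13.97 and 14.11 in the right and left tibia of SHAM 1 and 14.37 and 13.86 in those of SHAM 2, and the tibiae of SHAM 3 to 5 lay between 13.79 and 13.88.

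**Figure D4:**
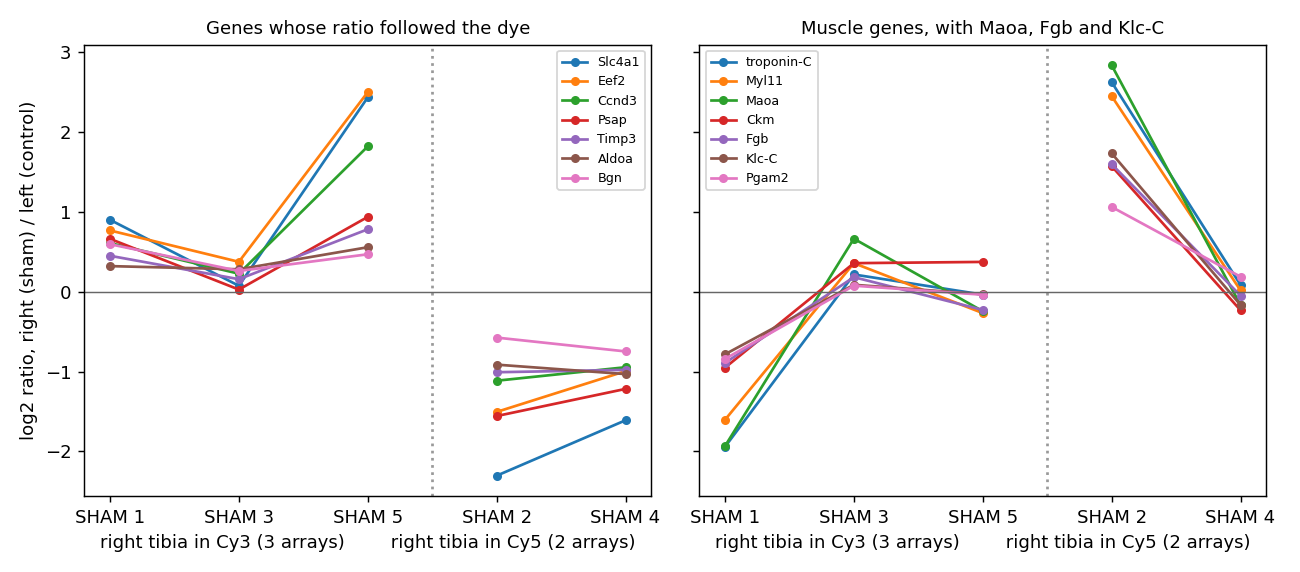
Log2 ratio of the squeezed right over the left tibia (vertical axis) in each SHAM array, with the 3 Cy3 arrays to the left and the 2 Cy5 arrays to the right of the dotted line. Slc4a1, Eef2, Ccnd3, Psap, Timp3, Aldoa and Bgn (left panel) lie above 0 in Cy3 and below 0 in Cy5. Troponin-C, Myl11, Maoa, Ckm, Fgb, Klc-C and Pgam2 (right panel) are lowest in SHAM 1 and highest in SHAM 2.

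A few genes differed mainly on SHAM 4 and had the opposite sign on LOAD 4. They were chosen after their values were seen. The accession D88586, which has no name here, had ratios of -0.22, -0.11, -0.23, -2.23 and -0.19 in SHAM and of 2.95 on LOAD 4. D50568, also unnamed, had -0.35, -0.32, -0.25, -1.13 and -0.08 in SHAM and 2.17 on LOAD 4. Cst8, a gene of the cystatin family, had -1.25 on SHAM 4 and 1.33 on LOAD 4. These 3 had means of -0.60, -0.43 and -0.40, and of -0.19, -0.25 and -0.18 without SHAM 4. AF009511, unnamed, had 1.86 on SHAM 4 and -1.60 on LOAD 4, and the glycolipid enzyme gene Ugt8 had 1.01 and -1.08. Smaller differences of this kind were seen for Cma1 (0.66 and -0.98), Tpsb2 (0.63 and -0.81), the fetal acetylcholine receptor chain Chrng (0.83 and -0.67) and the T cell receptor Cd28 (0.71 and -0.69).

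For D88586, D50568 and Cst8, the single channel levels were lowest in the tibiae numbered 25 and 26. These genes were chosen for opposite ratios on SHAM 4 and LOAD 4. Levels lower in 25 than in 4, and in 26 than in 3, follow from that choice. The log2 level of D88586 was 10.74 in tibia 25, the right tibia of SHAM 4, and 9.80 in tibia 26, the left tibia of LOAD 4, whereas the other 18 tibiae ranged from 12.13 to 13.52. D50568 was at 12.50 in tibia 25 and 11.23 in tibia 26, and at 13.08 to 14.73 in the others. Cst8 was at 8.53 and 7.85, against 8.96 to 10.45. The labels assign one of these tibiae to a SHAM and the other to a LOAD rat. The other genes of this kind did not all set both tibiae apart. AF009511 was at 8.70 in tibia 25 and 7.85 in tibia 26, and the other 18 tibiae reached 8.01. Ugt8 was at 8.56 and 8.08, with up to 8.51 in the others. Chrng, at 9.46 and 9.54, lay within the range of the others (8.12 to 10.30). When the controls of the 2 arrays were exchanged, so that 25 was set against 26 and 3 against 4, the ratio of D88586 was 0.89 on SHAM 4 and -0.16 on LOAD 4, that of D50568 1.21 and -0.17, and that of Cst8 0.62 and -0.54. The exchange also moved the large muscle ratios from LOAD 4 to SHAM 4. Myl11 went from 0.02 to -4.25 on SHAM 4 and from -3.85 to 0.42 on LOAD 4. Troponin-C went from 0.09 to -4.31 and from -3.80 to 0.61. Over 4587 genes the median absolute ratio of SHAM 4 was 0.149 as labelled and 0.273 with the controls exchanged, and 42 and 339 genes, respectively, had a ratio beyond 1. The exchanged ratios come from different arrays and carry the spread between arrays. Which pairing is right was not tested further.

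**Figure D5:**
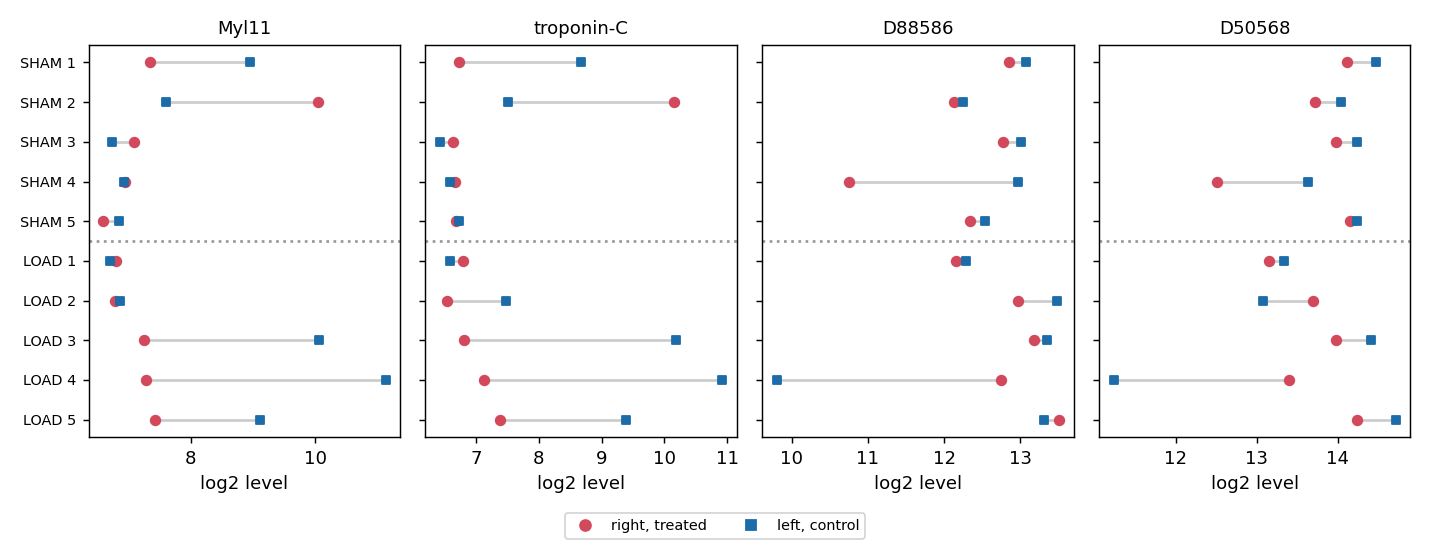
Log2 level of the single channels (horizontal axis) for Myl11, troponin-C, D88586 and D50568 in the right, treated tibia (red circles) and the left, control tibia (blue squares) of each array. SHAM arrays lie above and LOAD arrays below the dotted line. The 2 muscle genes are high in the left tibia of SHAM 1 and the right tibia of SHAM 2, and D88586 and D50568 are lowest in the right tibia of SHAM 4 and the left tibia of LOAD 4.

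Other genes stood out in a single rat. A ratio more than 0.5 beyond those of the other 4 rats was seen in 3 genes for SHAM 1, 53 for SHAM 2, 76 for SHAM 3, 36 for SHAM 4 and 21 for SHAM 5. In SHAM 3, Slc3a1, a subunit of a renal amino acid transporter, had 2.18 against -0.22 to 0.07 in the other rats. In SHAM 2, Hcrtr2, an orexin receptor, had -2.53 against -0.16 to 0.25, with signal in 1 of 10 channels, and Tnp1, a nuclear protein of spermatids, had -1.26 against -0.00 to 0.09. In SHAM 4, Fgf18, a growth factor of cartilage and bone, had -2.37 against -0.29 to 0.32, with signal in 2 of 10 channels. Slc3a1 had signal in 9 and Tnp1 in 5 of 10 channels.

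A difference in width between the ratios of squeezed and bent rats was not detectable. The median absolute ratio of an array was 0.134 ± 0.0226 in SHAM and 0.173 ± 0.0709 in LOAD (SD, n = 5 each), a difference within the spread between arrays (exact permutation test, 2-sided, p = 0.278). The median SD of a gene was 0.190 in SHAM and 0.255 in LOAD. No gene was called between LOAD and SHAM at the rate of 20% (0 of 4707, 0%; lowest adjusted p in limma 0.999), and 70 had an unadjusted p under 0.05 (1.49%). Of the genes that the study names, 10 were measured. All but Phex were named for loading, and Phex for a difference between the contralateral tibiae of LOAD and SHAM. All 10 had a mean above 0 in SHAM, from 0.01 for Phex to 0.23 for Maoa. Their median was 0.13, beside 0.00 over all genes. Ckm, troponin-C, Maoa, Fgb and Klc-C had the same rats at both ends, so that the 10 genes are not independent. The study chose them on these arrays, and 0 of the 10 passed the test. The interval was -0.36 to 0.62 for Mepe, -0.22 to 0.37 for Ralgapa1, a regulator of Ral GTPases, -0.63 to 1.08 for Ckm, -1.14 to 1.52 for troponin-C and, widest of the 10, -1.13 to 1.59 for Maoa. A left-right difference of 2-fold in either direction thus lay outside the interval for Mepe and Ralgapa1, and inside it for Ckm in the upward and for troponin-C and Maoa in either direction.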

How the data were processed

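By the study's design, each array was hybridised with the right and left tibia of a rat. The file headers give tibia numbers, which do not run in sequence on SHAM 4 and LOAD 4. The authors scanned the slides with an Agilent scanner and processed the images with BlueFuse. The deposited intensity values, 1 per channel and accession with duplicate spots combined, were not normalized, and the deposited confidence and signal probability (a fraction) are the software's. The deposited matrix of log2 ratios matched the treated over control ratio of these intensities within 0.01 for 4803 of 4803 accessions on each array, so that the alternative without normalization stands for it. The authors also flagged spots by eye, a step that could not be repeated here. After its filtering the study tested far fewer genes than the 4707 kept here, so that its adjusted values and these are over unlike sets.

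Values of confidence below 0.11 were treated as missing, and log2 ratios were normalized by loess (span 0.3, 4 iterations). Genes missing on more than 1 of 10 arrays (96 of 4803) were left out. Means of SHAM and LOAD were fitted per gene with limma 3.58.1 (R 4.3.3), with moderated statistics, Benjamini-Hochberg adjustment over all genes and the study's threshold of 20%. The script was tested on simulated data. Single channel levels were scaled by Aquantile. A channel had signal at a probability of at least 0.5. Arrays give no counts, and their number limits the precision. Names came from RefSeq accessions (1177) and from the study (7), and 3619 accessions stayed unnamed. Probe sequences were not used here.

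Named genes were the 15 of lowest p in each direction, the 15 of largest SD, up to 4 of lowest p per list, the early response list and the genes the study names, of which the text gives a selection, and some are not reported here. Other genes are marked as chosen after their values were seen, or are examples of the dye, muscle, single-rat and even patterns chosen in the same way. The members, lists and tests were chosen with earlier results of these data known. Alternatives changed normalization, filters, dye, scan batch, replicate block, prior and the arrays included.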

Additional observations from a re-analysis of the deposited data

Results flagged for a closer look

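Of the 104 genes examined for the text, 12 had a rat at an end of the group whose gap to the nearest other rat was large for the range of the group. Chance marks about 1 group in 20, and over all 4616 genes with 5 ratios 257 (5.57%) were marked, 24 for SHAM 1, 68 for SHAM 2, 83 for SHAM 3, 55 for SHAM 4 and 27 for SHAM 5. In SHAM 3 these were Slc3a1 at a log2 ratio of 2.18, P2ry2 at 1.18, Icam1 at 0.97 and the pregnancy-specific glycoprotein gene Psg19 at 0.71. In SHAM 4 they were Fgf18 at -2.37, D88586 at -2.23, D50568 at -1.13 and Plau, the urokinase gene, at -0.37, the latter over 4 rats. In SHAM 2 they were Hcrtr2 at -2.53 and Tnp1 at -1.26. In SHAM 5 they were Dlg1 at -0.034, where the other 4 rats lay between 0.25 and 0.35, and the inositol kinase gene Itpkb at 0.16, over 4 rats with the others between -0.43 and -0.33. Many of these genes were chosen for the text because 1 rat stood apart, so that their number says nothing about the share of such genes.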

How the results depend on the processing

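The number of genes past a false discovery rate of 20% in SHAM was 0 under each of the 23 alternatives, and genes at an unadjusted p under 0.05 ranged from 11 (robust prior with an intensity trend) to 284 (SHAM arrays alone with a dye term), from 22 to 73 when a SHAM array was left out, with 22 without SHAM 4 and 73 without SHAM 5. LOAD against SHAM stayed at 0 except without normalization (2 genes). Genes past 20% for the dye over 10 arrays (86) were 5 after median centring, 1 without normalization, 0 among the 3118 genes with signal in both channels of every SHAM array, 12 with 50 added to the intensities, 1355 in SHAM alone, 1 in LOAD alone, 6 without both arrays numbered 4, 577 with the dyes of LOAD 2 exchanged, and 7 to 17 without a SHAM array (7 without SHAM 4). In SHAM alone (1355) they were 3091 after median centring and 461 to 1454 without a SHAM array, lowest without SHAM 5. The median SD (0.190) was 0.268 after median centring, 0.765 without normalization, 0.15 with 50 added and 0.236 with the controls of the arrays numbered 4 exchanged. The difference between SHAM and LOAD in the median absolute ratio (-0.0384) was 0.187 without normalization and 1.96e-05 with scaling between arrays. The cause of these changes was not tested.

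With the replicate number as a block, 0 genes passed in SHAM (29 at an unadjusted p under 0.05) and 0 in LOAD against SHAM (65). Same-numbered SHAM and LOAD arrays are labelled as different rats but shared a scan batch. Their deviations from the group means correlated at -0.17, -0.25, 0.07, -0.40 and -0.28. These correlations cannot show whether the numbers pair the samples, since the treated dye also differed within some of the pairs. Of 2341 values of the 104 genes under the alternatives, 2272 moved by less than the SD between rats, 0 passed the false discovery rate and 218 had the other sign, in 89 genes. Without normalization the median of all genes was -0.42, against 0.00 after loess. Leaving out both arrays numbered 4, the exchange of their controls, the exchange of LOAD 2 and the dye fits by subset were chosen after seeing the data.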
